A study of Homo sapiens with 24 samples.

Results

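The regions described here gained the active histone mark H3K27ac and a binding site of the muscle regulator MYOD at the same place after knockdown of TWIST2. They were found in RD, an established human line of fusion-negative rhabdomyosarcoma, by chromatin immunoprecipitation followed by sequencing (ChIP-seq). Peaks of the 4 H3K27ac libraries were merged where they shared at least 1 bp, and those of the 4 MYOD libraries were merged separately. A region was called KD-only when both TWIST2 knockdown (KD) libraries had a peak in it and neither control library had. A KD-only H3K27ac region that overlapped a KD-only MYOD region is called a co-gained region. There were 2365 of them among 55905 H3K27ac regions (4.23%). KD-only H3K27ac regions numbered 11079 (19.8% of all), so 21.3% of them were co-gained. KD-only MYOD regions numbered 8059 of 88541 (9.10%), and 2404 of them (29.8%) lay in co-gained regions. These counts were fixed by the rule and are given as a description only.

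Each antibody had 2 libraries of TWIST2 KD cells and 2 of control cells, in the set RD-1 for H3K27ac and MYOD and in the set RD-2 for SMARCA4 (antibody BRG1). A further 2 RD-1 libraries used a Ty1 antibody in cells with 3xTy1-TWIST2, a tagged form of the factor, and are neither KD nor control samples. All samples are of the RD line and carry no other genotype in the labels. Neither the method of knockdown nor a separate culture for each replicate is stated, so any p-value compares these libraries only and does not reach beyond them. Positions are in build hg19 (GRCh37). No gene annotation of that build was used, so regions are named by position and the identity of the line was not checked at marker genes. The H3K27ac, MYOD and Ty1 lists give positions without tag counts, and the depth of those libraries is unknown. TWIST2 itself is not measured by these lists, so the depth of the knockdown was not checked, and no Ty1 library of untagged cells was used here. The SMARCA4 libraries had 36095336 and 41066933 total tags in KD and 46690705 and 44810601 in control, per the file headers. In bulk chromatin, a site gained in some cells and a weaker gain in every cell cannot be told apart.

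MYOD is a basic helix-loop-helix activator that binds E-box sequences as a partner of E proteins and drives skeletal muscle differentiation. TWIST2 belongs to the same family and, in mouse myoblast studies, opposes MYOD at such sites. H3K27ac is deposited at active promoters and enhancers by the acetyltransferases p300 and CBP. SMARCA4 is an ATPase of the SWI/SNF complexes, which move nucleosomes and are recruited to muscle genes together with MYOD. Rhabdomyosarcoma cells contain MYOD yet stay arrested before terminal muscle differentiation.

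Co-gained regions were short marks around a single MYOD site. Their median width was 1658 bp, with the middle 80% of them between 953 and 2912 bp. They were short beside H3K27ac regions present in all 4 libraries, whose median was 2725 bp, but not beside other KD-only H3K27ac regions. Among those, the median was 1560 bp with a MYOD region of all 4 libraries and 1304 bp without any MYOD region. It was 1489 bp where the MYOD regions were neither KD-only nor present in all 4 libraries. The widest H3K27ac peak of a co-gained region had a median of 1564 bp in KD replicate 1 and 1528 bp in KD replicate 2. In 2342 regions each KD list had exactly 1 H3K27ac peak. Both KD libraries ordered the regions alike by width, with Spearman's rho of 0.882 over the 2365 regions, which share their libraries and are not independent. Most marks were of modest size. The median width percentile was 42.2 in the list of KD replicate 1 and 39.9 in that of replicate 2, where 100 is the widest peak, and 47 regions reached a mean percentile of 90 or more.

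Of the co-gained regions, 2326 held 1 KD-only MYOD region and 39 held 2. In 2082 this was the only MYOD region of any kind, 263 held 2 MYOD regions and 20 held 3 or more. A MYOD region present in all 4 libraries occurred in 23 and a control-only MYOD region in 8. In all, 116 co-gained regions held a peak from at least 1 control MYOD library beside the gained site. The MYOD site lay near the middle of the mark. Its centre was a median of 132 bp from the centre of the H3K27ac region, or 7.91% of that region's width, and 1825 of 2404 MYOD sites (75.9%) were in the middle when the region was divided into 3 equal lengths. Only 61 (2.54%) had their centre outside it. The position of the MYOD peak in its list, read as a percentile with 100 as the first entry, had a median of 46.8. What the order of the MYOD lists means is not stated in the files. It was weakly related to the width of the mark (Spearman's rho 0.280 over 2365 regions of the same cells), and 510 regions were above the 50th percentile in both.

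The count of co-gained regions depended on requiring MYOD in both KD libraries. It was 3767 without MYOD KD replicate 1 and 3858 without MYOD KD replicate 2, since a single library then defines the gain, whereas leaving out any other H3K27ac or MYOD library gave 2510 to 2824. The KD lists were also longer than the control lists. H3K27ac had 48022 and 46822 peaks in KD and 36679 and 34932 in control, and MYOD had 52510 and 48003 in KD and 44974 and 43381 in control. MYOD peaks were also wider in KD (median widths of 213 and 225 bp) than in control (159 and 179 bp). After the lists of an antibody were cut to equal length, 1393 regions met the rule. These lists hold no score, so the cut need not have kept the strongest peaks. The part of unequal enrichment in the remaining gains was not tested.

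The widest co-gained region by percentile lay at chr4:157030008-157041192, where the widest H3K27ac peak measured 10379 bp in KD replicate 1 and 11175 bp in KD replicate 2, and neither control library had a peak. Its MYOD site at chr4:157032913-157033139 was at percentiles 92.3 and 80.2 of the KD lists. No TWIST2 region lay within it, and SMARCA4 had a peak in KD replicate 2 only, at 4.63 tags per 10000000. The region at chr1:179119052-179126238 carried peaks of 7170 and 6405 bp in the KD libraries. There the gained MYOD site was 7 bp, centre to centre, from a TWIST2 region. In the region at chr21:16808527-16816287, with KD peaks of 7761 and 6686 bp, this distance was 57.5 bp. Of the 6 widest co-gained regions, 1 had a SMARCA4 peak in a KD library and none had one in a control library. Control peaks were rare at co-gained regions in general, present at 2.58% and 5.75% of them. A TWIST2 region was held by 4 of the 6, and by 45.2% of co-gained regions of 3000 bp or more.

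Of the 39 regions with 2 gained MYOD sites, the 6 with the highest mean H3K27ac width percentile were examined. They differed in how far these sites were apart, and being chosen for width they need not resemble the others. At chr7:92599996-92605860 the sites were separated by 443 bp, and the higher of them stood at percentiles 89.3 and 93.1 of the KD MYOD lists, within H3K27ac peaks of 5752 and 5633 bp. At chr13:33893864-33900049 they were 1144 bp apart. At chr5:127503801-127514381 and chr11:16112537-16123305 they lay 6267 and 6289 bp from each other, towards opposite ends of wide merged regions. The widest H3K27ac peak at chr5 was 5034 bp in KD replicate 1, shorter than this distance, and 10408 bp in KD replicate 2. At chr11 the widest peaks were 6766 and 9944 bp.

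The gained MYOD sites highest in the KD lists lay in marks of varied width, at mean width percentiles of 39.8 to 93.4 for the 6 highest. The first, at chr10:62956903-62957127, stood at percentiles 99.0 and 99.6, was 66 bp from the centre of its H3K27ac region (KD peaks of 2367 and 2275 bp), and had neither a TWIST2 region nor a SMARCA4 peak. The second, chr10:60325026-60325314, stood at 99.5 and 99.1 within KD peaks of 1861 and 1868 bp. A TWIST2 region lay 63.5 bp from it, and SMARCA4 had peaks of 7.20 and 4.87 tags per 10000000 in the KD libraries and none in the controls. The site at chr10:115223565-115223805, at percentiles 97.4 and 98.6, was 22 bp from a TWIST2 region and had no SMARCA4 peak in any library. High MYOD list position thus occurred with and without the other factors. Of the 6 highest sites, 3 lay in a region with TWIST2 and 2 in a region with SMARCA4 in a KD library.

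Few regions were near the edge of the rule. The MYOD region was wholly inside the mark in 2230 of 2404 cases, and 17 overlaps were shorter than 50 bp. The smallest were 2 bp at chr8:36878104-36878745 and 4 bp at chr15:99111415-99112122. Just outside, the KD-only H3K27ac regions at chr2:26646507-26647860 and chr13:95308589-95309116 ended 6 and 11 bp from a KD-only MYOD region, and 16 such regions lay within 500 bp. A larger number failed because of the second library. Among 4053 KD-only H3K27ac regions whose MYOD regions were neither KD-only nor present in all 4 libraries, 2636 held a MYOD peak of 1 KD list and no control list, and 874 held a MYOD region of both KD lists and 1 control list.

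Tagged TWIST2 was found at 809 of 2365 co-gained regions (34.2%, 95% Wilson interval 32.3 to 36.1), counting regions with a peak in both Ty1 libraries. Over all H3K27ac regions it was found at 22374 of 55905 (40.02%), a higher share than at co-gained regions. At co-gained regions the libraries alone gave 44.6% in Ty1 replicate 1 and 44.1% in replicate 2. The shares were 51.9% (48.8 to 54.9) where H3K27ac was gained over a MYOD site of all 4 libraries, 35.0% (33.6 to 36.5) over other MYOD regions and 20.0% (18.7 to 21.3) without any MYOD region. At H3K27ac regions of all 4 libraries the share was 52.0% (51.4 to 52.6), and at control-only H3K27ac regions with control-only MYOD, the opposite change, 33.6% (27.8 to 40.1) of 223 regions. These intervals cover counting error only, and regions are not replicates. Wider regions can hold more sites, and the classes differ in width. Per Mb covered, there were 192 TWIST2 regions in co-gained regions, against 319 over constant MYOD, 223 over other MYOD and 149 without MYOD. The value was 169 in H3K27ac regions of all 4 libraries, 186 over all H3K27ac regions and 221 in regions of the opposite change. On that scale the order of co-gained and constant H3K27ac regions turned round, and co-gained regions were no longer below all H3K27ac regions. At each of 5 widths the share at co-gained regions lay between those over constant MYOD and without MYOD. Under 1000 bp, 29.2% of co-gained regions had TWIST2, against 48.1% over constant MYOD and 16.1% without MYOD, and from 3000 bp upward the shares were 45.2%, 63.8% and 35.3%.

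**Figure D1:**
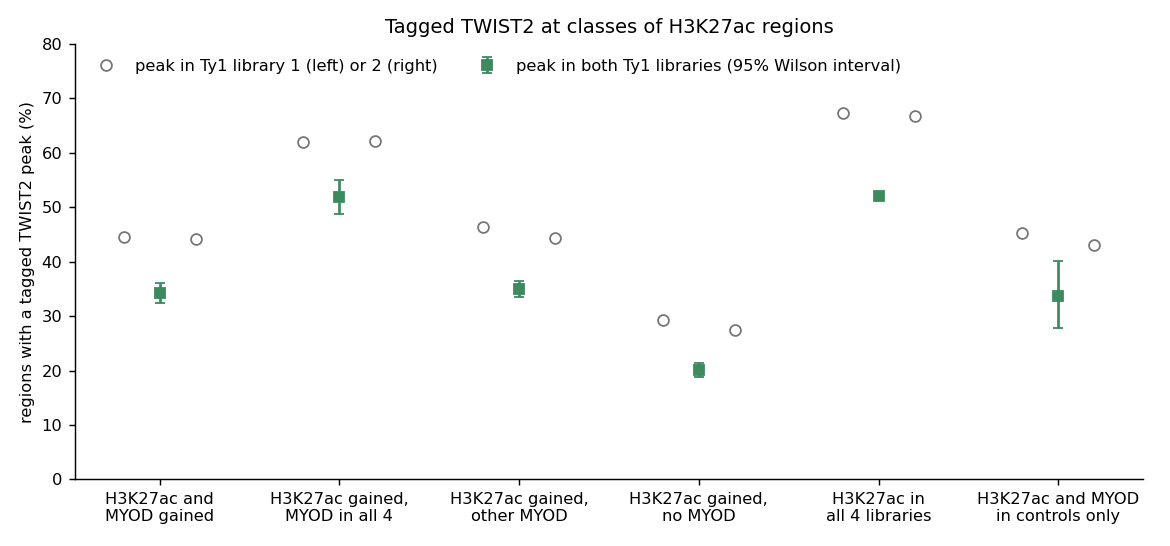
Share of H3K27ac regions (y axis, %) that hold a tagged TWIST2 peak, for 6 classes of regions (x axis). Squares count regions with a peak in both Ty1 libraries, with 95% Wilson intervals, and open circles each Ty1 library alone. Co-gained regions stand at 34.2%, above the 20.0% of gained regions without MYOD and below the 51.9% over constant MYOD.

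Co-gained regions seldom held several TWIST2 regions, with 32 holding 2 or more and 1 holding 3. Those with TWIST2 were slightly wider (median 1736 bp, against 1617 bp without) and their MYOD sites stood at similar list positions (median percentile 47.6, against 46.4 without). The Ty1 peaks at co-gained regions were at median percentiles of 58.6 and 55.5 of their lists, and those at H3K27ac regions of all 4 libraries at 68.3 and 66.5. Ty1 peaks in the first 10% of the lists made up 10.9% and 10.0% of those at co-gained regions and 18.3% and 17.2% of those at constant H3K27ac regions.

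Where TWIST2 was present, it mostly lay close to the gained MYOD site. Of 2404 gained sites, 514 (21.4%) had the centre of a TWIST2 region within 100 bp and 729 (30.3%) within 500 bp. The median distance of those within 500 bp was 56.5 bp. At 12947 MYOD regions of all 4 libraries in constant H3K27ac, 38.0% had TWIST2 within 100 bp, and the median distance of those within 500 bp was 49 bp. Counted on the MYOD region itself, which is of about the same width in each place (medians of 266 to 268 bp), TWIST2 overlapped 28.5% of KD-only MYOD sites in KD-only H3K27ac (26.7 to 30.3). It overlapped 26.2% of KD-only MYOD sites in constant H3K27ac (24.2 to 28.2) and 21.0% of those outside any H3K27ac region (19.5 to 22.6). The intervals for gained and constant H3K27ac overlap.

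SMARCA4, which the rule did not use, was found at more co-gained regions in KD than in control cells. Peaks were present at 264 (11.2%, 95% Wilson interval 9.96 to 12.5) and 342 (14.5%, 13.1 to 15.9) of the 2365 regions in the KD libraries, against 61 (2.58%, 2.01 to 3.30) and 136 (5.75%, 4.88 to 6.76) in the control libraries. Both KD libraries were above both controls. Over all 55905 H3K27ac regions SMARCA4 was present in 16.1% and 17.0% in KD libraries, against 15.8% and 30.3% in control libraries (KD minus control -6.50 points), so the shares at co-gained regions were below the overall level in every library. The means at co-gained regions were 12.8% ± 2.33 in KD and 4.16% ± 2.24 in control (SD, n = 2 each), a difference of 8.65 percentage points and a ratio of 3.08. An exact permutation of the libraries gave p = 0.333 (two-sided), which is the lowest value this design can reach, so no difference of this kind can pass a usual threshold here. Leaving out any 1 SMARCA4 library gave differences of 7.00 to 10.3 points. The KD libraries had fewer total tags, a lower approximate IP efficiency (0.65% and 0.70% in KD, against 0.88% and 1.83% in control) and lists of 12518 and 14676 peaks in KD, against 11835 and 25013 in control. With the 11835 peaks of highest score taken from each list, 10.3% and 11.5% of co-gained regions had SMARCA4 in KD and 2.58% and 0.719% in control.

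Seen from the SMARCA4 lists, 2.18% and 2.39% of KD peaks lay at co-gained regions, against 0.515% and 0.560% of control peaks. The ratio of the means was 4.25, and the SD between libraries was 0.149 percentage points in KD and 0.0313 in control (n = 2 each, exact permutation p = 0.333, at the floor of the design). Peaks of KD lists at co-gained regions were of middling score for their lists (median percentiles of 43.3 and 43.2), whereas the fewer peaks of control lists there were low in theirs (15.9 and 20.8). The authors' tag counts at these peaks had medians of 4.43 and 4.38 tags per 10000000 in the KD libraries, against 4.71 and 4.46 in the control libraries. These medians lay closer together than the medians of whole lists, which were 4.99 and 4.38 in the KD libraries, against 7.07 and 6.69 in the controls.

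**Figure D2:**
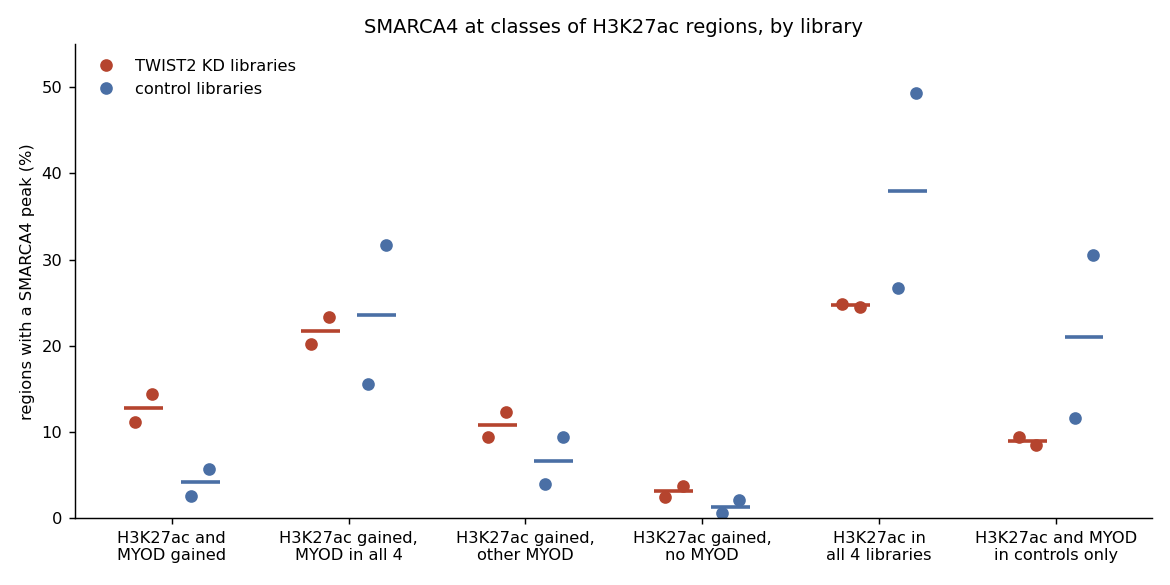
Share of H3K27ac regions (y axis, %) with a SMARCA4 peak in each library, for 6 classes of regions (x axis). Points are libraries, with replicate 1 left of replicate 2, and bars are means of 2 libraries. At co-gained regions both KD points (11.2% and 14.5%) lie above both control points (2.58% and 5.75%), and at H3K27ac regions of all 4 libraries both KD points (24.9% and 24.6%) lie below both control points (26.7% and 49.3%).

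The gain of SMARCA4 was compared with that in other classes over the same libraries. At KD-only H3K27ac regions without any MYOD region, SMARCA4 was present in 2.54% and 3.804% in KD and 0.606% and 2.15% in control. Co-gained regions exceeded that class by 8.63 and 10.7 points in the KD libraries and by 1.97 and 3.60 points in the control libraries, a difference of 6.86 points between KD and control (exact permutation p = 0.333, n = 2 each, at the floor of the design). As a ratio to that class, co-gained regions were 4.402 and 3.802 times as often occupied in KD and 4.25 and 2.67 times in control, so on the ratio scale the libraries of the groups overlap (exact permutation p = 0.667, n = 2 each). The ratio of KD to control means was 3.08 at co-gained regions and 2.3 without MYOD with whole lists. With lists of equal length it was 6.62 and 7.27, so the order of the classes turned between these settings. The ratios of equal lists rest on few control regions, 61 and 17 co-gained and 22 and 4 without MYOD. Which class had the larger relative gain is thus not settled. The 4053 gained regions with other MYOD also had more SMARCA4 in KD, at 9.47% and 12.3%, against 3.95% and 9.43% in control (a difference of 4.19 points, exact permutation p = 0.333, n = 2 each, at the floor of the design). With lists of equal length the difference there was 6.74 points. Where H3K27ac was gained over MYOD sites of all 4 libraries, SMARCA4 was common in every library, at 20.2% and 23.3% in KD, against 15.6% and 31.7% in control libraries. There KD minus control was -1.84 points with whole lists and 6.78 points with lists of equal length, so its direction turned. At control-only H3K27ac regions with control-only MYOD, the shares were 9.42% and 8.52% in KD and 11.7% and 30.5% in control.

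SMARCA4 peaks at co-gained regions also lay close to the gained MYOD site. In the KD libraries 7.32% and 9.78% of the 2404 sites had the centre of a SMARCA4 peak within 100 bp, and in the control libraries 1.25% and 3.66%. The median distance of peaks within 500 bp was 55.5 and 51.8 bp in the KD libraries, against 67 and 61.8 bp in the control libraries. A gained MYOD site within gained H3K27ac overlapped a SMARCA4 peak in 9.19% and 12.5% of cases in KD and 1.83% and 4.37% in control. Gained MYOD sites in constant H3K27ac did so in 9.97% and 10.1% of cases in KD and 5.84% and 15.1% in control, where the libraries of the groups overlap. Those outside any H3K27ac region had SMARCA4 at 7.86% and 10.3% in KD, against 3.27% and 7.06% in control libraries. The KD shares were thus of similar size in these 3 settings, and the control shares were lowest in the co-gained regions.

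**Figure D3:**
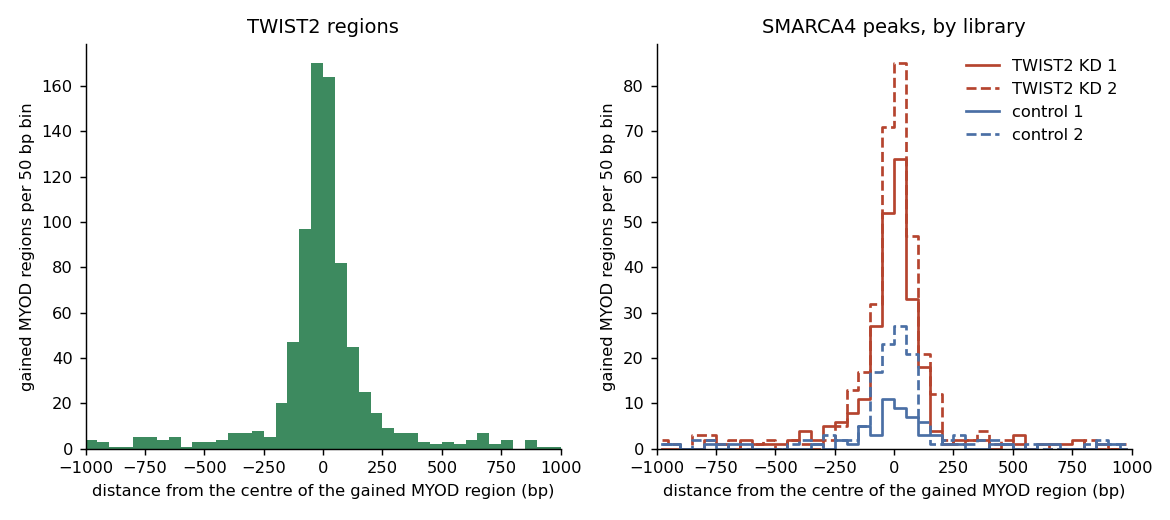
Distance of the nearest TWIST2 region (left) and the nearest SMARCA4 peak in each library (right) from the centre of the 2404 gained MYOD regions in co-gained regions (x axis, bp), as the number of MYOD regions per bin of 50 bp (y axis). Both factors peak at the MYOD centre, and the SMARCA4 curves of the KD libraries lie above those of the control libraries there.

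Individual co-gained regions rarely had SMARCA4 in both KD libraries. A peak in both KD lists and neither control list occurred at 59 of them (2.49%, 95% Wilson interval 1.94 to 3.20), against 1.34% of all H3K27ac regions. Among other gained regions it occurred at 2.71% of those over constant MYOD, 1.43% with other MYOD and 0.441% without MYOD, so it was not particular to co-gained regions. The reverse pattern, both control lists and neither KD list, occurred at 9 (0.381%), against 4.40% of all H3K27ac regions and 3.97% of gained regions over constant MYOD. A peak in only 1 KD list and no control list was seen at 396 of the 2365, against 5301 of all 55905 H3K27ac regions. No SMARCA4 peak in any library was found at 1731 (73.2%), against 53.95% of all H3K27ac regions. SMARCA4 was present in all 4 libraries at 5 (0.211%), against 1.80% of all H3K27ac regions. A region without a listed SMARCA4 peak may still carry SMARCA4 under the calling threshold.

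Within the co-gained regions, SMARCA4 was more frequent where the MYOD site stood higher in its list, a split that was not tested. Above the median MYOD position, 15.1% and 18.95% of 1182 regions had SMARCA4 in KD libraries, against 3.21% and 7.53% in control libraries. At or under the median, 7.27% and 9.97% of 1183 had it in KD libraries, against 1.94% and 3.97% in control libraries. Regions with TWIST2 had SMARCA4 in 12.6% and 19.2% of cases in KD and 5.19% and 9.77% in control. Regions without TWIST2 had it in 10.4% and 12.0% in KD, against 1.22% and 3.66% in control libraries. The difference between KD and control was 8.41 points with TWIST2 and 8.77 points without it (exact permutation p = 0.333 for each, n = 2 each, at the floor of the design). The means were 15.9% in KD and 7.48% in control with TWIST2, and 11.2% and 2.44% without it. Relative to control, the KD share was thus higher without TWIST2, a contrast that was not tested.

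Both factors were more frequent in the widest than in the narrowest co-gained regions. SMARCA4 was present in 5.45% and 10.9% of those under 1000 bp in KD, and in 15.1% and 19.2% of those of 3000 bp or more. This rise was not particular to co-gained regions. Between the same widths, gained regions without MYOD went from 16.1% to 35.3% with TWIST2. Their SMARCA4 shares in KD went from 1.66% and 2.59% to 4.71% and 10.6%. At each of the 5 widths both KD libraries were above both control libraries for co-gained regions.

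**Figure D4:**
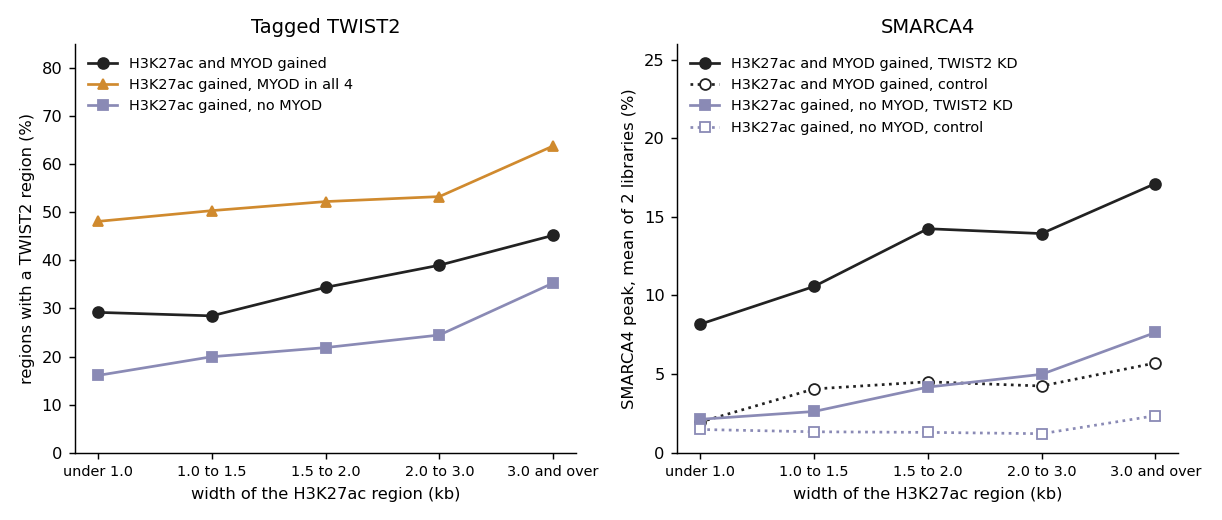
Share of gained H3K27ac regions with a TWIST2 region (left, %) and with a SMARCA4 peak (right, %, mean of 2 libraries) by width of the region in kb (x axis). The lines are co-gained regions, gained regions over constant MYOD (left only) and gained regions without MYOD, and dotted lines with open symbols are control libraries. In the narrowest bin 29.2% of co-gained regions have TWIST2 and in the widest 45.2%.

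The co-gained regions with the highest SMARCA4 scores, chosen among those with a peak in both KD libraries, differed in whether control libraries had a peak. At chr8:28514876-28516435, SMARCA4 had 10.8 and 10.5 tags per 10000000 in KD and 20.8 and 15.4 in control, so the factor was already there in controls, and the MYOD site overlapped the edge of the mark. At chr10:77118207-77120065 it had 6.93 and 8.77 tags in KD and no peak in either control, and the nearest TWIST2 region was 3367.5 bp from the MYOD centre. At chr16:68856495-68858805 SMARCA4 had 8.59 and 5.84 tags in KD and no control peak, and TWIST2 was centred 15 bp from the MYOD site. At chr18:11499582-11501505 it had 7.48 and 6.82 tags in KD, and a peak of 6.47 tags in control replicate 2 only.

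Co-gained regions were spread over every chromosome but Y. As a share of the H3K27ac regions of a chromosome they were most frequent on chromosome 18 (73 regions, 5.74%), chromosome 4 (155, 5.61%) and chromosome 3 (181, 5.37%), and least frequent on chromosome 19 (22, 1.14%). As a share of the KD-only H3K27ac regions they ranged from 13.2% on X and 15.0% on chromosome 13 to 27.6% on chromosome 20. On chromosome 19 that share was 17.3%, while only 6.56% of its H3K27ac regions were KD-only. Low numbers on chromosome 19 thus accompanied few KD-only H3K27ac regions in general.

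**Figure D5:**
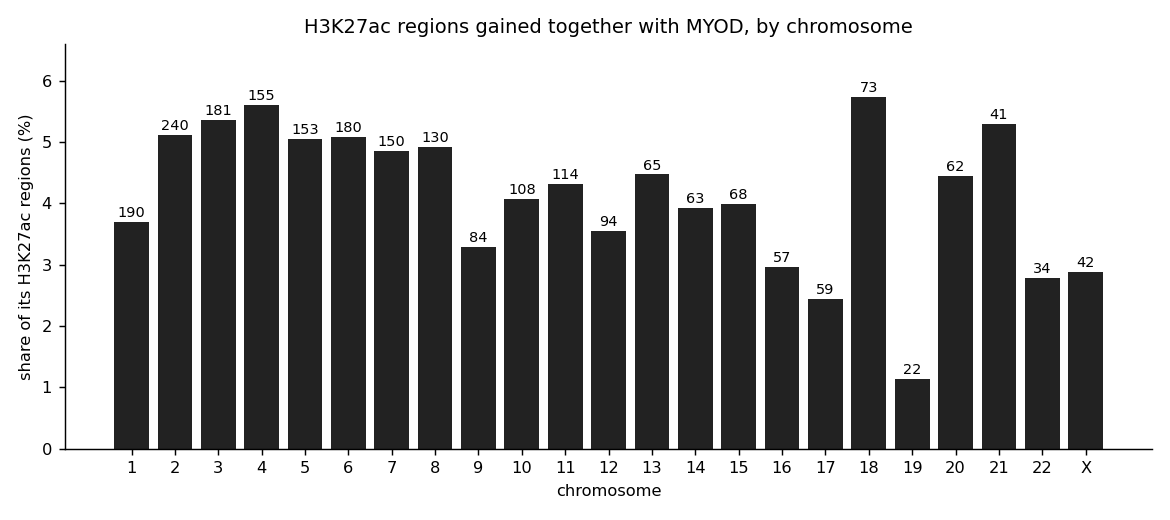
Co-gained regions as a share of all H3K27ac regions of each chromosome (y axis, %), with the number of co-gained regions above each bar. Chromosome Y, with 2 H3K27ac regions and no co-gained region, is left out. Chromosome 18 is highest at 5.74% and chromosome 19 lowest at 1.14%.

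Few co-gained regions had another within 10000 bp, and their spacing was not compared with that of other classes. The median gap to the next on the same chromosome was 539051 bp, 140 (5.92%) had another within 10000 bp and 738 (31.2%) within 100000 bp. The distance to the nearest H3K27ac region of all 4 libraries had a median of 25087 bp, and 25.6% of co-gained regions lay within 10000 bp of such a region. Gained regions without any MYOD were closer to constant marks, with a median of 14502 bp and 41.2% within 10000 bp, and gained regions over constant MYOD were as far away as co-gained regions (27364 bp, 23.5%).

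Of 1330 windows of 1 Mb with a co-gained region, 723 held a single one and 253 held 3 or more. The windows with 3 or more contained 934 of the 2365 regions. The window chr12:79000001-80000000 held the most, 9, among 21 KD-only H3K27ac regions, with no TWIST2 and no SMARCA4 peak in any of the 9. Windows with 8 were chr1:230000001-231000000 and chr2:112000001-113000000, where 2 and 3 of the co-gained regions had TWIST2. In chr10:53000001-54000000, 7 co-gained regions lay among 23 KD-only H3K27ac regions, and SMARCA4 peaks in the whole window numbered 13 and 14 in KD and 3 and 14 in control. In chr6:113000001-114000000, 7 co-gained regions lay among 24 KD-only H3K27ac regions and 44 TWIST2 regions. Of the 7, SMARCA4 was present at 1 and 3 in the KD libraries and at 0 and 1 in the control libraries. SMARCA4 peaks in that whole window numbered 11 and 15 in KD and 10 and 20 in control. These windows were chosen by their counts.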

How the data were processed

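ChIP-seq peak lists of 14 libraries were used, and 10 input samples had no list here. The submitters' processing notes list HOMER 4.4, Bowtie2 2.3.4.3, bedtools 2.29.2 and SAMtools 0.1.19, and the build names hg19 and GRCh37. Each deposited list is of 1 library. The H3K27ac, MYOD and Ty1 lists give positions only. Per the file headers, SMARCA4 peaks were called by HOMER against an input library, with a false discovery rate of 0.001 and a 4-fold excess required over input and over the local 10000 bp. The deposited SMARCA4 columns hold a tag signal per 10000000 tags, the HOMER score and the fold ratio over input. Each is the authors' own value, and score served only to rank peaks within a list.

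Peaks on chromosomes 1 to 22, X and Y were merged per antibody. A TWIST2 region needed peaks from both Ty1 libraries. Per-library shares of regions were compared by the exact two-sided permutation test over libraries. Named regions were the 6 highest by number of KD-only MYOD regions, MYOD list position, H3K27ac width and SMARCA4 score in both KD lists, the windows of 1000000 bp with most members (ties kept) and the 2 regions on each side of the rule. Ties in the number of KD-only MYOD regions were broken by the mean H3K27ac width percentile. The regions, classes and rules were chosen with earlier results of these data known. The work was done in scipy 1.17.1, pandas 2.3.3, numpy 2.4.6 and matplotlib 3.10.9 under Python 3.11.15, and class assignment was tested on simulated data. E-box sequences, distances to transcription start sites and gene names were not analysed here.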

Additional observations from a re-analysis of the deposited data

Results flagged for a closer look

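The difference in SMARCA4 share between KD and control libraries had opposite signs at co-gained regions and at H3K27ac regions of all 4 libraries. It drew attention as a difference between classes under the same contrast. KD minus control was 8.65 percentage points at co-gained regions and -13.3 points at constant regions, a difference of 21.9 points (exact two-sided permutation p = 0.333 over 2 KD and 2 control libraries, the smallest possible). At constant regions SMARCA4 was present in 24.9% and 24.6% in KD and in 26.7% and 49.3% in control. The size of the fall there rests largely on control replicate 2, whose list of 25013 peaks is the longest. With lists of 11835 peaks each, the KD shares at constant regions were 24.0% and 22.3% and the control shares 26.7% and 30.6%, a difference of -5.46 points, and the difference at co-gained regions was 9.26 points, so both signs were kept. No group has 4 or more libraries, so no single library could be tested as standing apart.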

How the results depend on the processing

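The number of co-gained regions was 2365, and it became 1393 with lists cut to equal length, 1250 with the upper 0.5 of each list and 6977 with a peak in at least 1 KD library. In each of these settings the lists or the rule were made shorter or looser by construction. The H3K27ac and MYOD lists hold no score, so cut lists need not hold the strongest peaks. Leaving out single libraries gave 2510 to 3858 regions. The share with TWIST2, 34.2%, became 36.7% with lists of equal length, 38.2% with the upper 0.5 of each, 30.0% with 1 KD library and 52.8% with TWIST2 in at least 1 Ty1 list, and was 31.8% to 44.6% without single libraries, highest where 1 Ty1 list defined TWIST2. The SMARCA4 differences between KD and control (8.65 points) and between co-gained regions and those without MYOD (6.86 points) stayed positive in every setting tried, at 5.50 to 12.0 and 4.19 to 8.78 points. Leaving out single libraries gave 7.00 to 10.3 and 4.61 to 7.87 points. With the replicate number as a block the exact p of both was 0.5, the smallest that 2 pairs allow. Same-numbered SMARCA4 libraries did not deviate together (r = -0.00857 over all H3K27ac regions), and the labels do not say that the numbers pair the samples. Merging at 500 bp, an overlap of 0.5, MYOD peaks of 200 bp and leaving out chromosome 19, the last chosen after seeing the data, gave counts of 2305 to 2483 and TWIST2 shares of 33.8% to 34.5%. E-box and start-site shares were not run. The unknown depth of RD-1 libraries limits what a missing peak shows.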
